A study of Homo sapiens with 3 samples.

Results

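Of the 9818 MYC peaks that the authors deposited for U2OS cells, 810 were broad peaks at the end of a single gene. Each was at least 1200 bp wide, and its summit lay within 1000 bp of an end of exactly 1 protein-coding gene in RefSeq on GRCh38. The 810 peaks belonged to 810 different genes, 4.06% of the 19974 protein-coding genes, of which 25.4% had a single-end peak of any width. They were 15.8% of the 5119 peaks at single gene ends, and the other 4309 are called narrow here. Widths of 1200 bp or more occurred in 14.4% of all peaks. The members were chosen by peak width and summit position, so their width, fold enrichment and −log10 q, which all come from the same comparison of immunoprecipitate with control, are given as descriptions without a test.

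U2OS is a human osteosarcoma line, used here as the parental line, untreated and without an engineered allele named in the labels. MYC was profiled by ChIP-Rx, chromatin immunoprecipitation in which formaldehyde-fixed mouse NIH3T3 cells are mixed in as a reference genome. An anti-MYC antibody was used for 2 libraries, which the design calls biological replicates, and 1 further library was made from input DNA. The single peak list carries no value per library, so no replicate spread, depth or test between samples could be given, and peaks of 1 list are not replicates. Fold enrichment and −log10 q are the authors' own values throughout, and the intervals given with shares are Wilson 95% intervals that cover counting error only.

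MYC is a transcription factor of the basic helix-loop-helix leucine zipper class that binds DNA as a dimer with MAX. The dimer prefers the E-box CACGTG, tolerates related sites such as CACGCG, and is found mainly at promoters that are already open and active. Its best known targets make ribosomes, proteins, nucleotides and the enzymes of energy metabolism. A broad peak is an interval in which the signal stayed above the peak caller's threshold over a longer stretch of DNA, whatever the height of its summit.

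Promoter sequence is shown for some of the strongest peaks and for the widest, to place the E-boxes relative to the start and the summit. In 4 of the 9 cases (RPLP0, EEF1A1, RCC1 and ACTG1) the summit lay downstream of the start, outside the printed stretch. The RefSeq promoters (GRCh38.p14) are printed below for the 250 bases before the annotated start, 5′ to 3′ along the gene, in lower case with CACGTG and CACGCG, read on both strands, in capitals. CACGTG is its own reverse complement, the reverse complement of CACGCG is CGCGTG, and matches that overlap on opposite strands count separately. The first 4 are the members with the highest −log10 q that held CACGTG here and had a summit within 250 bp of the gene's 5′ end: LOC124900276, an uncharacterised gene that overlaps the small nucleolar RNA host gene SNHG7 (chr9:136728185-136728434, minus strand), SECISBP2, which recruits the selenocysteine machinery to messages (chr9:89318250-89318499, plus strand), SRM, spermidine synthase (chr1:11060019-11060268, minus strand), and ATF4, the stress-response transcription factor (chr22:39520309-39520558, plus strand).
LOC124900276: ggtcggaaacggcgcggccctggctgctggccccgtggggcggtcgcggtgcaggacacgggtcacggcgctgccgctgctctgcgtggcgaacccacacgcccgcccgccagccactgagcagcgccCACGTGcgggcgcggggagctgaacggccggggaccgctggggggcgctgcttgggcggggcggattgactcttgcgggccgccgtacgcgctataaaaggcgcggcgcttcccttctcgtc
SECISBP2: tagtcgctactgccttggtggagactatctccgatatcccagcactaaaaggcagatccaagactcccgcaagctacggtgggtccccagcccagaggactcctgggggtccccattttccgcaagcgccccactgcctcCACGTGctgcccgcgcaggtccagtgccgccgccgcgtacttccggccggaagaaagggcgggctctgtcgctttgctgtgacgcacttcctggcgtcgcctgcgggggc
SRM: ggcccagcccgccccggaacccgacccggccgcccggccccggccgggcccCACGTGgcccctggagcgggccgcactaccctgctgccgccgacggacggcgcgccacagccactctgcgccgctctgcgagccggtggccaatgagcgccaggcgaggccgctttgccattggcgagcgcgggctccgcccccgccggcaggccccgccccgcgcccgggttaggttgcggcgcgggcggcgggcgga
ATF4: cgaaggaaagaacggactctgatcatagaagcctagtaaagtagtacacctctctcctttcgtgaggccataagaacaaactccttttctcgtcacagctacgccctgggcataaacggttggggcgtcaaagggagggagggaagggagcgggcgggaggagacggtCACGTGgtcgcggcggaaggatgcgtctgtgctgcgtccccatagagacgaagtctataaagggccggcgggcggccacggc
In LOC124900276 the E-box began 122 bases before the start and the summit lay 21 bp from its first base. In SECISBP2 it began 110 bases before the start, 10 bp from the summit. In SRM it began 199 bases before the start, 14 bp from the summit, and in ATF4 it began 82 bases before, 20 bp from the summit. In each of these 4 promoters the capitals therefore mark bases next to the highest point of a peak between 1310 and 2005 bp wide.

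Sequences were printed only for genes whose start listed in RefSeq promoters was the gene's 5′ end, which left out ZNF131 (−log10 q 1138). Within that limit, the next 3 are the members with the highest −log10 q and a summit as close to the 5′ end whose promoter held no CACGTG. They are RPLP0, a protein of the ribosomal stalk (chr12:120201112-120201361, minus strand), EEF1A1, the elongation factor that brings aminoacyl-tRNA to the ribosome (chr6:73521033-73521282, minus strand), and ARHGDIA, an inhibitor of small GTPases (chr17:81871338-81871587, minus strand).
RPLP0: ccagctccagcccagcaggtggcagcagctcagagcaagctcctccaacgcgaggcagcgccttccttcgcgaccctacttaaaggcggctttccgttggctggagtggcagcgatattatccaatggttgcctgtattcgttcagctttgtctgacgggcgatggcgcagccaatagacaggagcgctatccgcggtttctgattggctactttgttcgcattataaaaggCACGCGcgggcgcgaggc
EEF1A1: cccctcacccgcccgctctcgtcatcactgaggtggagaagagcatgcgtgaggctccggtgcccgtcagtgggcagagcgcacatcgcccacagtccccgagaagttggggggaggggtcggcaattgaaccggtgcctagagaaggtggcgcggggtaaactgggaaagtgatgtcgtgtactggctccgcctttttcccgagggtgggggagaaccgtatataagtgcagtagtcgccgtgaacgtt
ARHGDIA: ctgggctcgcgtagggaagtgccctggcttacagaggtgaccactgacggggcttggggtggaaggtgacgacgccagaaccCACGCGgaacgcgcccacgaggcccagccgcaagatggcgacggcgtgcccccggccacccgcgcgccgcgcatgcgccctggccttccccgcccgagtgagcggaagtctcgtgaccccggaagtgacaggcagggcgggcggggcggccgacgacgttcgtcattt
In ARHGDIA the CACGCG began 168 bases before the start and 29 bp from the summit, and in RPLP0 the CACGCG began 18 bases before the start and 66 bp from the summit, which lay inside the gene. EEF1A1 held neither hexamer in these 250 bases, and its summit lay 225 bp downstream of the start.

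The last pair belongs to the 2 widest peaks. RCC1 encodes the exchange factor of the GTPase Ran (chr1:28505793-28506042, plus strand), and ACTG1 encodes gamma actin (chr17:81512800-81513049, minus strand).
RCC1: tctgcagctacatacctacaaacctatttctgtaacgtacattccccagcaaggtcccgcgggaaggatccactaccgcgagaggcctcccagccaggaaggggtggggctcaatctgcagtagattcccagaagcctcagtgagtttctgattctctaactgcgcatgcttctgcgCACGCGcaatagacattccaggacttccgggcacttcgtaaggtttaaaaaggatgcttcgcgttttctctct
ACTG1: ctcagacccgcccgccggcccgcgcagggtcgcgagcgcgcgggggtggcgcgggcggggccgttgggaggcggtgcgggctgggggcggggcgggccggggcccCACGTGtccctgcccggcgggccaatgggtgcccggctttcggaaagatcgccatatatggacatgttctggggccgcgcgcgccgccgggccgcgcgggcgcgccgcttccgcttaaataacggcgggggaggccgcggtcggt
The CACGCG of RCC1 lay 92 bp from the summit and the CACGTG of ACTG1 lay 200 bp from it. The E-box of ACTG1 was thus farther from the summit than in the first 4 promoters printed. Those 4 were limited to summits within 250 bp of the 5′ end. The summits of RCC1 and ACTG1 lay as near, 19 and 55 bp downstream of the start.

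Broad peaks were on average the higher peaks of the list. Their width had a median of 1404.5 bp, with quartiles of 1288 and 1604 bp and a maximum of 4000 bp, beside a median of 737 bp in narrow peaks. Their fold enrichment over control had a median of 11.7 (quartiles 7.98 and 18.7), beside 7.63 in narrow peaks, and their −log10 q had medians of 103 and 46.4. The 272 broad peaks shared by ends of several genes had a median fold of 12.1, and the 328 at no protein-coding end one of 10.3. The 810 members held 8.25% of the peaks and 15.1% of all bases under peaks, 1212.6 kb.

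Height and width were related, but loosely. Among single-end peaks, 5.69% were broad in the lowest of 4 equal bins of fold (2.45 to 5.76), 10.4% and 16.4% in the middle bins and 30.8% in the highest (12.1 to 119). Spearman's rank correlation between width and fold was 0.455 over the 5119 single-end peaks, 0.412 over the 4309 narrow peaks and 0.139 over the 810 members. These values describe peaks of the same libraries and carry no test. Among members, a wider peak was only slightly more often a higher one, as the plot of width against fold shows. Members were cut at 1200 bp on width, and such a cut can lower a correlation with width by itself. Whether the lower value of members goes beyond this was not tested.

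**Figure D1:**
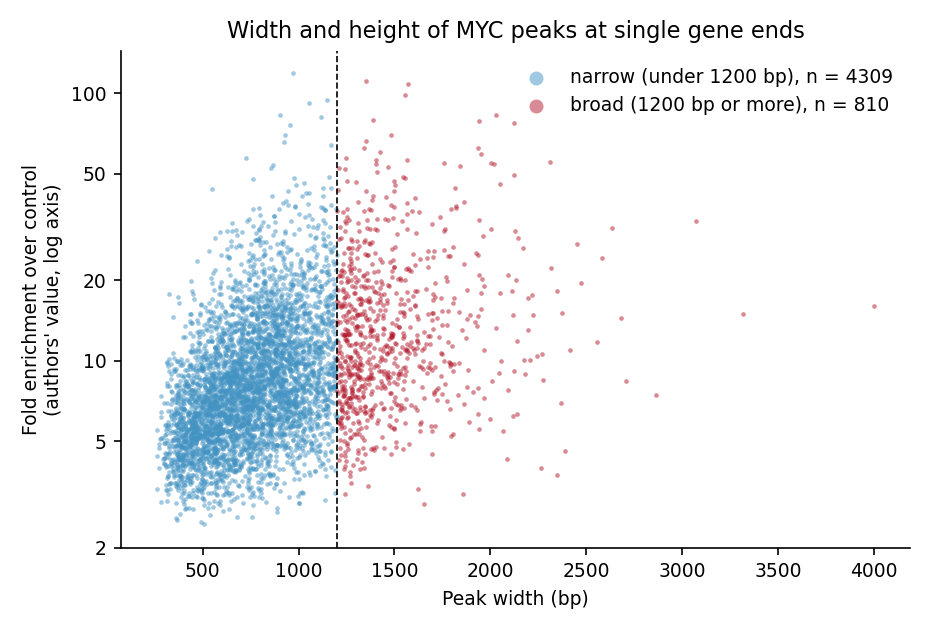
Width in bp (horizontal axis) and the authors' fold enrichment over control (vertical, logarithmic axis) of the 5119 single-end peaks. The 810 broad peaks start at 1200 bp and cover folds from 2.93 to 111, so they overlap the range of the narrow peaks.

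The minimum of 1200 bp cut through a continuous distribution. There were 224 members less than 100 bp above it and 297 narrow peaks less than 100 bp below it. Just inside, at 1200 bp, lay the peaks of UBA1, the main ubiquitin-activating enzyme (fold 36.4), NOCT, nocturnin (16.7), and ATL1, the endoplasmic reticulum GTPase atlastin (8.70). Just outside lay MDM2, a ubiquitin ligase, at 1199 bp (fold 12.01), and EIF4G1, the scaffold of translation initiation, and ADCK5 at 1198 bp (24.9 and 6.05). The folds on both sides overlapped.

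Among the 10 widest members, of which 9 are described, were several genes that lie beside another transcript. RCC1 (chromosome 1, 28505247 to 28509246) was the widest at 4000 bp, with a fold of 16.1. Its peak reached 3204 bp downstream of the RCC1 5′ end and also covered ends of SNHG3, a small nucleolar RNA host gene, and of SNORA73A and SNORA73B. ACTG1 (3315 bp, fold 15.0) reached 2684 bp upstream, over an end of FSCN2. CBX3, the heterochromatin protein HP1 gamma (3071 bp, fold 33.2), covered an end of HNRNPA2B1, and its summit lay 713 bp inside the gene.

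YWHAZ, a 14-3-3 adaptor protein, had a peak of 2865 bp at a fold of 7.48. GPBP1L1 (2709 bp, fold 8.38) covered an end of TMEM69, and ZBTB1 (2558 bp, fold 11.7) an end of ZBTB25. HNRNPF, an RNA-binding protein of splicing (2633 bp, fold 31.4), MAT2A, which makes S-adenosylmethionine (2580 bp, fold 24.3), and KPNB1, importin beta (2472 bp, fold 19.6), covered no other protein-coding end. MAT2A covered an end of the noncoding gene PARTICL and KPNB1 one of KPNB1-DT. None of these 9 was among the 10 members with the highest −log10 q.

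The 10 members with the highest −log10 q were between 1297 and 2031 bp wide, beside a median of 1404.5 bp over all members. LOC124900276 led with a −log10 q of 2315 and a fold of 109 (chromosome 9, 136727468 to 136729038), followed by SLC33A2 (2313, fold 53.4). RPLP0 (1228, fold 46.5), EEF1A1 (1197, fold 78.5) and RPL23A, a protein of the large ribosomal subunit (966, fold 62.6), belong to the translation apparatus. ZNF131, a zinc finger protein (1138, fold 56.3), and GABPB1, the partner subunit of the ETS factor GABPA (1123, fold 82.7), are transcriptional regulators. ARHGDIA (1084, fold 54.4), SECISBP2 (936, fold 32.6) and GDI2, an inhibitor of Rab GTPases (930, fold 34.4), completed the 10. By fold alone the highest member was ZNF598, a ubiquitin ligase that senses collided ribosomes, at 111. It was named after its value was seen.

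Broad peaks of low fold also existed. The 5 lowest were PTK2, focal adhesion kinase (fold 2.93, 1652 bp), PPP2CA, a catalytic subunit of protein phosphatase 2A (3.17, 1240 bp), CAMK2D, a calmodulin-dependent kinase (3.18, 1860 bp), SFXN5 (3.31, 1621 bp), and ARPC1B, a subunit of the actin-nucleating complex (3.41, 1361 bp). Their widths lay between 1240 and 1860 bp and overlapped those of the members with the highest −log10 q.

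Strand, which the choice of members did not use, was given for the genes of 673 members. In 672 of them the nearest gene end was the 5′ end, where transcription starts, and in 1 it was the 3′ end. The exception, TUSC1, is only 1476 bp long: its summit lay 718 bp from the 3′ end and 757 bp from the 5′ end, and its peak of 1468 bp also covered bases on both sides of the 5′ end. Among 3587 narrow peaks with strand, 71 (1.98%, 1.57 to 2.49) lay nearest a 3′ end, beside 0.149% (0.0262 to 0.837) of members.

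The summits of broad peaks lay farther from the 5′ end than those of narrow peaks. The distance of the summit to the nearest gene end had a median of 287 bp in members and 144 bp in narrow peaks. Within 250 bp of the 5′ end lay 299 of 673 member summits (44.4%, 40.7 to 48.2) and 69.4% (67.9 to 70.9) of narrow ones. At 500 bp or more lay 23.4% (20.3 to 26.7) and 8.96% (8.06 to 9.95). Both sides were used about equally, with 51.0% of member summits and 51.2% of narrow ones downstream. Summits more than 500 bp upstream (56 members, median fold 11.8) and more than 500 bp downstream (99 members, median fold 10.8) were about as high as the 153 within 100 bp of the start (11.9).

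The peaks themselves reached over the start in nearly all cases. The 5′ end was covered by 95.2% (93.4 to 96.6) of the 672 members nearest a 5′ end and by 85.0% (83.8 to 86.1) of narrow peaks. Members extended a median of 598.5 bp upstream and 833 bp downstream, and narrow peaks 305 and 429 bp. More of the peak was downstream than upstream in 64.0% (60.3 to 67.5) of members and 62.2% (60.6 to 63.8) of narrow peaks, so the lean towards the gene body had a like share in both. The length of these arms is tied to the width that chose the members.

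**Figure D2:**
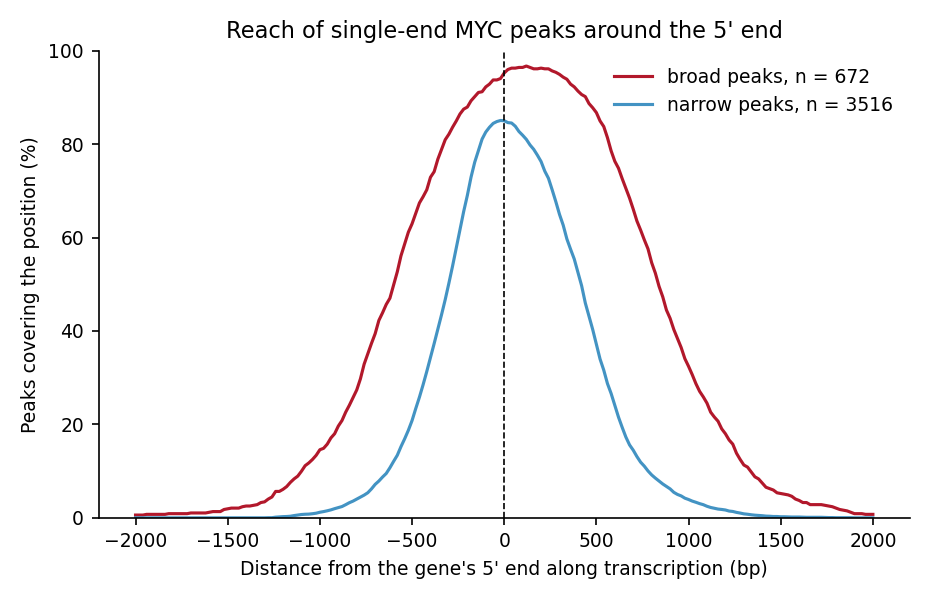
Share of peaks (vertical axis, percent) that cover each position relative to the gene's 5′ end (horizontal axis, bp along transcription), for 672 broad and 3516 narrow single-end peaks. At 500 bp downstream 86.8% of broad and 37.1% of narrow peaks covered the position, and at 500 bp upstream 62.9% and 20.8%.

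Several annotated transcription starts were more frequent among genes under broad peaks, a description without a test. RefSeq promoters listed 2 or more starts for 229 of 673 member genes (34.0%, 30.5 to 37.7), beside 23.5% (22.1 to 24.9) at narrow peaks and 25.5% (24.9 to 26.2) of 15812 protein-coding genes. Read the other way, 21.4% (19.0 to 23.9) of single-end peaks at genes with several starts were broad, and 13.9% (12.8 to 15.2) at genes with 1. The order was the same in each bin of fold, from 8.18% beside 4.42% in the lowest to 39.4% beside 27.3% in the highest.

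A member covered 2 or more listed starts of its own gene in 147 cases (21.8%, 18.9 to 25.1), and a narrow peak in 10.8% (9.84 to 11.9). A wider interval can cover more starts by its length alone. The peak of PANK2, a pantothenate kinase of coenzyme A synthesis, covered all 5 of its listed starts in 1307 bp, and that of METTL21A, a protein methyltransferase, 5 of 6 in 1531 bp. Both genes were named after their values were seen. Measured to the nearest listed start, the summit distance had a median of 242 bp in members and 128 bp in narrow peaks, so the greater distance of member summits was also present with alternative starts counted. Median widths of members at genes with several starts and with 1 were 1444 and 1379 bp.

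Noncoding transcripts often began or ended under the same broad peak. An end of a noncoding gene was covered by 291 members (35.9%, 32.7 to 39.3) and by 19.7% (18.6 to 20.96) of narrow peaks, and mostly it was that of a long noncoding RNA gene (261 members). Divergent transcripts, with a symbol ending in -DT, were covered in 62 of the 810 members, antisense genes in 72, small nucleolar RNA host genes of the SNHG family in 8 and small nucleolar RNA genes in 10. These 4 kinds were counted in members only, so they are not compared with narrow peaks. A longer interval reaches more annotated ends, so the share with any noncoding end was also taken within 1000 bp of the summit, a window equal in both classes. There it was 37.8% (34.5 to 41.2) in members and 26.1% (24.8 to 27.4) in narrow peaks.

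An end of a further protein-coding gene, outside the 1000 bp window of the summit, lay under 14 members. A narrow peak, at most 1199 bp wide, can hardly reach so far from its summit, so no comparison is made. Beside those among the widest peaks, the pairs included USP5 with CDCA3, CCT7 with PRADC1, HNRNPH3 with PBLD, ALG5 with EXOSC8 and TBP with PSMB1, named after their values were seen. Such pairs are counted as single ends because the further end lay over 1000 bp from the summit. Of all members, 2 had a second, narrow peak at the 3′ end of the same gene. They were RELA, a subunit of NF-kappa B (637 bp, fold 6.53, beside 1365 bp and 16.6 at the 5′ end), and SLC2A1, the glucose transporter GLUT1 (568 bp, fold 4.48, beside 1393 bp and 9.45). No gene had more than 1 broad peak. Over all widths, the 5119 single-end peaks lay at 5065 genes, so second peaks also occurred at genes with narrow peaks only.

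In base composition the promoters of members and of narrow peaks were alike. The 300 bases from 250 before to 50 after the start, taken at the listed start nearest the gene's 5′ end, had a median GC content of 67.3% in 673 members, 66.3% at 3541 genes with narrow peaks and 62.7% in all 15812 promoters. The ratio of observed to expected CpG dinucleotides had medians of 0.900, 0.868 and 0.762. Member promoters were thus rich in CpG, and so were those of narrow peaks.

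The canonical E-box had nearly the same share in the promoters of broad and of narrow peaks. CACGTG lay in 80 of 673 member promoters (11.9%, 9.66 to 14.6), in 11.8% (10.8 to 12.9) of those at narrow peaks and in 8.82% of all promoters. CACGCG lay in 25.1% (22.0 to 28.5) of member promoters, 20.6% (19.3 to 22.0) at narrow peaks and 14.8% of all. Members with a CACGTG in the promoter had a median fold of 14.7 (quartiles 9.33 and 28.8), and those without had 11.7 (8.08 and 18.1). Their median widths were both 1398 bp, within a range of widths that the choice of members had cut at 1200 bp.

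Within bins of fold the E-box share of broad peaks was the lower one in 3 of 4 bins. In the highest bin it was 13.8% (10.5 to 17.9) of 334 broad and 19.1% (16.5 to 22.1) of 768 narrow peaks. In the lowest it was found in 1 of 56 broad peaks (1.79%, 0.316 to 9.45) and in 7.53% (6.04 to 9.35) of 983 narrow ones. In the third bin it was 10.2% (6.57 to 15.6) of broad and 11.8% (9.80 to 14.1) of narrow peaks. In the second bin broad peaks had the higher share, 14.0% beside 10.3%. The intervals of broad and narrow peaks overlapped in all 4 bins. The position of the summit went with the share in both classes. With a summit within 250 bp of the 5′ end CACGTG lay in 17.1% (13.2 to 21.7) of member promoters and 13.9% (12.6 to 15.3) at narrow peaks. With a farther summit it lay in 7.75% (5.45 to 10.9) and 7.01% (5.65 to 8.68). At like summit positions the broad share was thus slightly the higher one, with overlapping intervals.

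**Figure D3:**
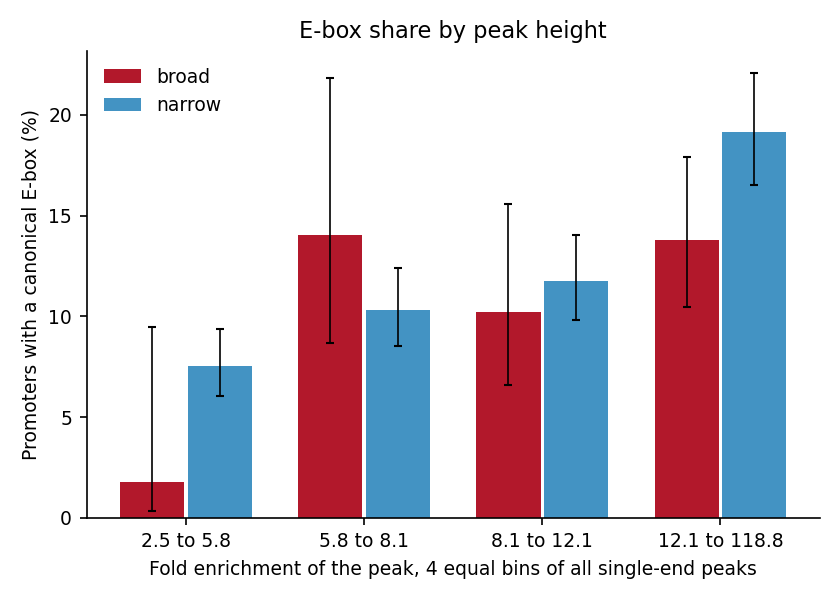
Share of promoters with CACGTG (vertical axis, percent, with Wilson 95% intervals) by bin of the authors' fold (horizontal axis, 4 equal bins), for broad and narrow single-end peaks. The share of narrow peaks ran from 7.53% in the lowest to 19.1% in the highest bin, and that of broad peaks lay between 1.79% and 14.0%.

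Other promoter sequences were counted the same way on both strands. The ETS-type site CCGGAAG lay in 18.1% (15.4 to 21.2) of member promoters, 23.2% (21.9 to 24.7) at narrow peaks and 14.1% of all. The TATA-type sequence TATAAA lay in 7.28% (5.55 to 9.50), 4.55% (3.91 to 5.29) and 9.75%, and the palindromic NRF1 motif in 15.5% (12.9 to 18.4), 14.3% (13.1 to 15.5) and 8.6%. The GC box GGGCGG (72.5%, 74.0% and 58.3%), CCAAT (35.5%, 35.2% and 36.4%) and the YY1-type GCCATNTT (11.4%, 11.9% and 7.91%) had like shares in members and narrow peaks. The same held for TGACGTCA (3.42%, 3.81% and 2.56%), CAGCTG (13.4%, 15.5% and 17.5%) and CATGTG (5.05%, 5.82% and 8.57%). The ETS-type share went with the position of the summit. With a summit within 250 bp of the 5′ end it was 23.7% (19.3 to 28.9) in members and 27.2% (25.5 to 29.0) at narrow peaks, and with a farther summit 13.6% in both. TATAAA was the more frequent in members than at narrow peaks, and below its share in all promoters in both. A match is a run of letters and was not shown to be bound.

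E-boxes were concentrated at the summits themselves. For 298 members and 2124 narrow peaks the summit fell inside a RefSeq promoter window of 300 bases, so that hexamers could be counted by distance from it. Within 50 bp of member summits CACGTG occurred 18.6 times per 10 kb searched (14.2 to 24.5), and between 50 and 100 bp 3.60 times (1.83 to 7.11), close to the 3.38 of all promoters. In narrow peaks these rates were 13.3 (11.8 to 15.1) and 3.798 (2.94 to 4.90). For CACGCG in members the rates were 28.1 (22.5 to 35.1) and 10.8 (7.26 to 16.1), beside 6.18 in all promoters. The GC box showed no such rise, with 60.3 within 50 bp and 68.0 from 50 to 100 bp. Neither did CAGCTG in members, with 4.02 and 4.95. A higher rate near summits was not limited to CACGTG and CACGCG. The ETS-type site CCGGAAG had 12.2 (8.68 to 17.1) within 50 bp of member summits and 9.46 (6.19 to 14.5) from 50 to 100 bp. From 100 to 150 bp it had 5.30. In narrow peaks these rates were 18.5, 14.5 and 7.96, beside 5.86 in all promoters.

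**Figure D4:**
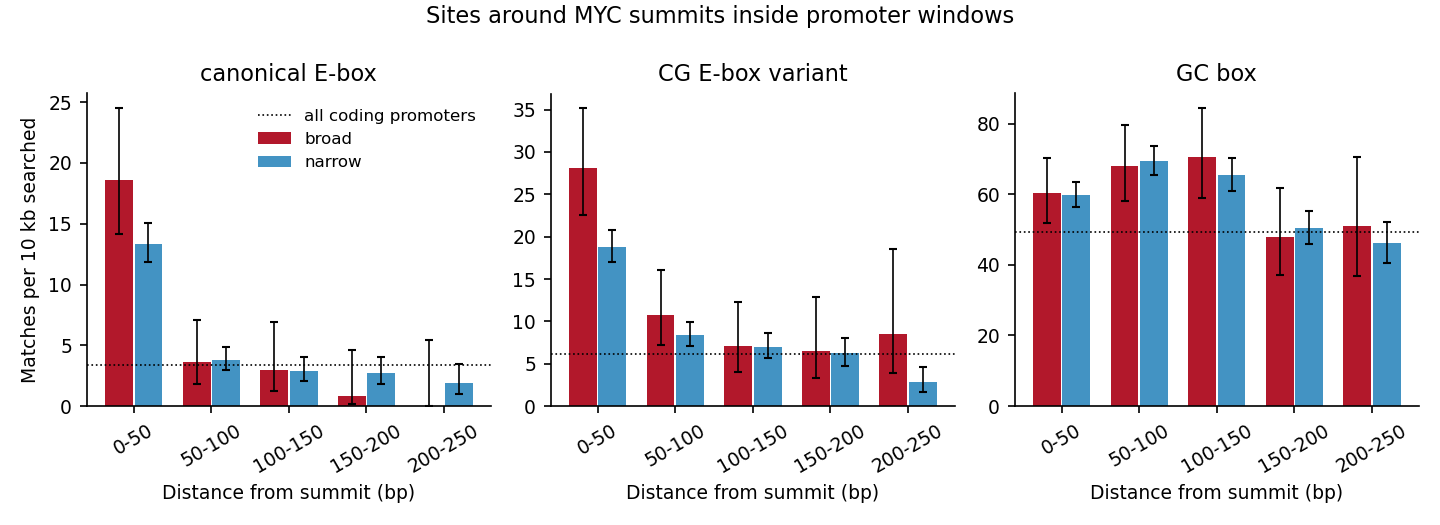
Matches per 10 kb searched (vertical axes, with Wilson 95% intervals) by distance of the match from the summit (horizontal axes, bp) for the canonical E-box, its CG variant and the GC box, in 298 broad and 2124 narrow peaks, with a dotted line at the rate in all protein-coding promoters. Within 50 bp the canonical E-box reached 18.6 in broad and 13.3 in narrow peaks, and the GC box had no maximum there.

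Counted by peak, CACGTG lay within 50 bp of the summit in 50 of these 298 members (16.8%, 13.0 to 21.4) and in 11.2% (9.93 to 12.6) of narrow peaks. CACGCG did so in 22.5% (18.1 to 27.6) and 15.0% (13.5 to 16.6), and either hexamer in 37.6% (32.3 to 43.2) and 25.2% (23.4 to 27.1). Members with CACGTG at the summit had a median fold of 21.4, those without 11.4, and the like medians of narrow peaks were 10.6 and 7.76. Broad peaks are also the higher ones, and the share was not separated from height here.

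Some of the strongest members among these 50 are described singly, without a claim on the group. The centre of the E-box lay 9.5 bp from the summit in MTHFD1L, which makes formate in mitochondria, 8.5 bp in ATIC, the last enzyme of purine synthesis, 9.5 bp in BCAT1, which transaminates branched-chain amino acids, and 13.5 bp in ODC1, the first enzyme of polyamine synthesis. It lay 11.5 bp away in SRM, which acts after ODC1 in that pathway, and 13.5 bp in WDR43, a factor of small ribosomal subunit assembly with a fold of 98.9. In HNRNPH3, a splicing factor, it was 1.5 bp. Apart from list leaders and members named above, these genes were named after their values were seen.

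Gene groups were read against the 4.06% of all protein-coding genes with a broad single-end peak. Of 737 genes in 17 lists of general knowledge, 134 (18.2%, 15.6 to 21.1) had one. The background includes 12463 genes with no summit within 1000 bp, so it also reflects whether a gene had any peak. Among genes with a single-end peak, 16.0% of all genes and 35.5% of the listed genes had a broad one. That share was 51.7% for ribosomal proteins, 27.3% for ribosome biogenesis, 26.3% for chromatin regulators, 4% for DNA replication and 0% for homeobox factors. The 4% rests on 1 gene with a broad and 24 with only a narrow single-end peak. The 0% rests on 12 genes, all with only narrow ones. Both counts are small and have no interval here, so a difference from 16.0% was not shown. Ribosomal protein genes had many. Of 80 genes for cytosolic ribosomal proteins 30 had a broad peak (37.5%, 27.7 to 48.5), 28 a narrow single-end peak only, 18 a shared peak only and 4 none. RPLP0 led, followed by RPL23A and RPS2, of the small subunit (1352 bp, fold 43.1). Their 30 broad peaks had a median fold of 24.3, beside 20.1 for the narrow ones of the list and 11.7 for all members.

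The summits of ribosomal protein genes lay in a tight range just inside the gene. With strand given, 20 of 23 were within 250 bp of the 5′ end, beside 44.5% of the 672 members nearest a 5′ end, and 20 of 23 were downstream of it. Their median position was 89 bp downstream (quartiles 59.5 and 130), whereas over all 672 members the quartiles were −248 and 323 bp, where minus is upstream. The 21 narrow peaks of the list had a median of 112 bp downstream. For splicing and RNA-binding factors the median was 283.5 bp downstream, with 12 of 14 downstream and 4 within 250 bp. These positions were compared after the values were seen.

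Other genes of protein synthesis were also above the 4.06% background. Among translation factors and tRNA synthetases 15 of 63 had a broad peak (23.8%, 15.0 to 35.6), led by EEF1A1 (1943 bp, fold 78.5), GARS1, which charges glycine tRNA (1254 bp, fold 46.9), and TARS1, which charges threonine tRNA (1543 bp, fold 48.8). Ribosome biogenesis genes had 9 of 64 (14.1%, 7.58 to 24.6), with DDX21, a nucleolar RNA helicase (1805 bp, fold 26.7), WDR43 (1555 bp, fold 98.9) and WDR74 (1760 bp, fold 55.1) strongest. A further 24 biogenesis genes had narrow and 27 shared peaks only. The 9 broad peaks of the list had a median fold of 26.7, about that of ribosomal proteins, although the share of broad peaks was lower.

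Metabolic genes stood in the same range. Nucleotide and one-carbon synthesis had 10 of 34 genes with a broad peak (29.4%, 16.8 to 46.2), led by MTHFD1L (1500 bp, fold 47.1), PPAT, the first enzyme of purine synthesis (2313 bp, fold 55.4), and ATIC (1232 bp, fold 36.1). All 9 single-end peaks of this list in the highest bin of fold were broad, beside 394 of 1280 (30.8%) over all genes. Other lists differed less from all genes in that bin. The broad share there was 51.5% (106 of 206) over all listed genes and 52.7% (29 of 55) for ribosomal proteins. For chromatin regulators it was 40% (6 of 15), and for ribosome biogenesis 33.3% (9 of 27), near that of all genes. Glycolysis and hexose use had 9 of 23 (39.1%, 22.2 to 59.2), with ENO1, enolase (1953 bp, fold 59.3), LDHB, a lactate dehydrogenase subunit (1464 bp, fold 53.1), and GAPDH (2317 bp, fold 22.2) strongest. In ENO1 and LDHB the summit lay 582 and 417 bp inside the gene, and in GAPDH 423 bp upstream.

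Protein folding and RNA processing followed. Chaperones and heat shock genes had 8 of 26 (30.8%, 16.5 to 49.99), led by CCT7, a chaperonin subunit (1758 bp, fold 30.6), PTGES3, a cochaperone of HSP90 (1791 bp, fold 24.7), and HSPA9, the mitochondrial HSP70 (1411 bp, fold 30.9). Splicing and RNA-binding factors had 15 of 50 (30%, 19.1 to 43.8). HNRNPF (2633 bp, fold 31.4), PCBP2, which binds poly(C) (1388 bp, fold 79.8), and SRSF6, an SR protein (1482 bp, fold 69.6), were strongest there.

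DNA replication genes were near the 4.06% background in their share of broad peaks over all genes of the list. Among genes with a single-end peak, 4% of this list had a broad one, beside 16.0% over all protein-coding genes. The 4% rests on 1 gene. Of 43 genes 1 had a broad single-end peak (2.33%, 0.412 to 12.1), 24 a narrow one only, 13 a shared one only and 5 none. The exception was MCM5, a subunit of the replicative helicase (1446 bp, fold 6.64). Only 5 of their single-end peaks reached the highest bin of fold, and none of these 5 was broad. The interval of this list held the 4.06% of all genes.

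Cyclins, CDKs and E2F factors, a list not limited to cell cycle regulators, were above the background share. They had 11 of 49 (22.4%, 13.0 to 35.9). The list was led by CDK13, a kinase of RNA polymerase II (1506 bp, fold 18.0), WEE1, the inhibitory kinase of mitotic entry (1597 bp, fold 25.0), and RBL1, the pocket protein p107 (1236 bp, fold 16.4). Elongation and pausing factors had 6 of 30 (20%, 9.51 to 37.3), with TOP1, topoisomerase I (1347 bp, fold 25.1), CDK13 and RTF1, of the PAF1 complex (1204 bp, fold 18.5). All 6 of their summits lay upstream of the 5′ end, at a median position of −316.5 bp. CDK13 and CCNT2, a cyclin, are in both lists, and CCNT2 is named only for this overlap.

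Transcription and chromatin regulators were nearer the background. Chromatin regulators had 10 of 89 (11.2%, 6.22 to 19.5), with SMARCC1, a core subunit of SWI/SNF (1408 bp, fold 50.9), HDAC2, a histone deacetylase (1502 bp, fold 45.6), and CHD1, a chromatin remodeller (1949 bp, fold 17.9). Immediate-early and stress factors had 5 of 53 (9.43%, 4.10 to 20.3), with ZFP36L2, which destabilises messages (2048 bp, fold 45.8), ATF4 (2005 bp, fold 31.2) and XBP1, of the unfolded protein response (1722 bp, fold 14.4). The MYC and MAX network had 2 of 14, MXD3, a repressive partner of MAX (1316 bp, fold 26.9), and MGA, another MAX partner (1394 bp, fold 18.2). The interval of this list, 4.01 to 39.9%, held the background share.

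In 3 further lists the intervals held that share too. Dual-specificity phosphatases and MAPK feedback genes had 2 of 23 (8.70%, 2.42 to 26.8), SPRED1 (1407 bp, fold 12.5) and DUSP16 (1690 bp, fold 5.72). Matrix and osteoblast genes had 1 of 27 (3.704%, 0.657 to 18.3), the intermediate filament gene VIM (1485 bp, fold 12.2). Homeobox factors had 0 of 54, which allows a share of up to 6.64% (upper Wilson bound), although 12 had narrow peaks.

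**Figure D5:**
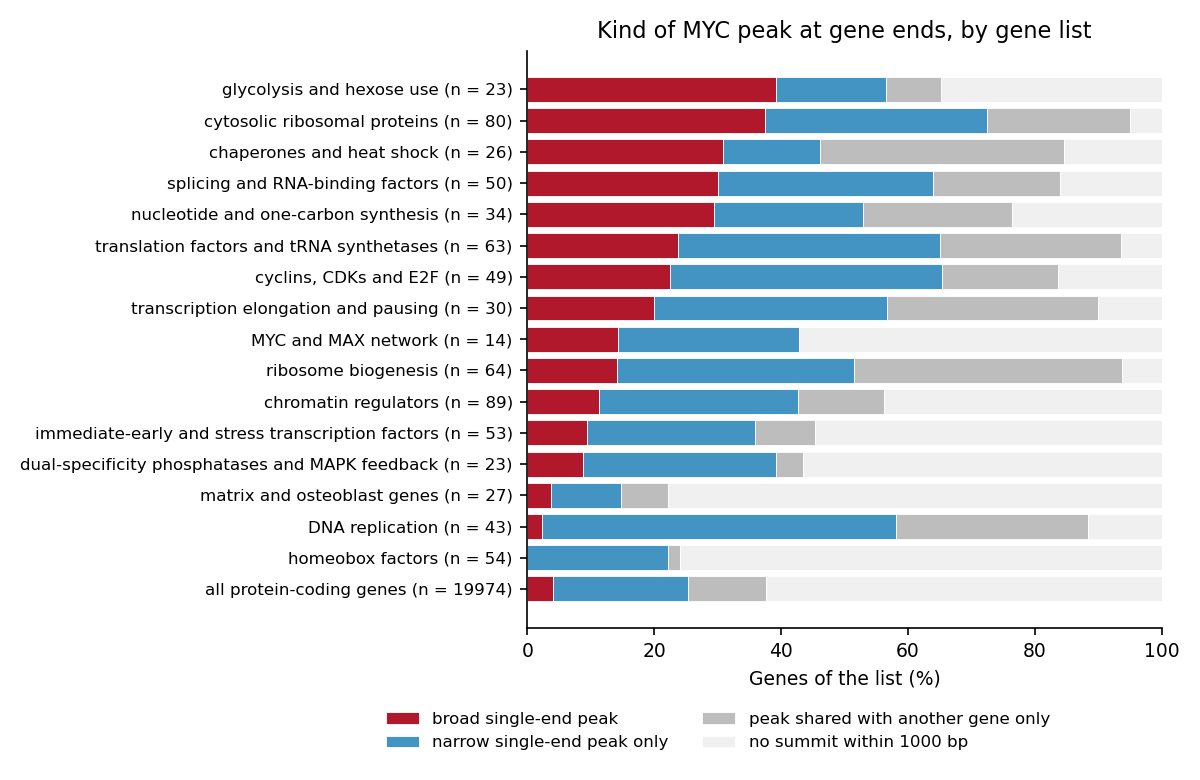
Share of the genes of each of 16 lists (horizontal axis, percent, stacked bars) with a broad single-end peak, a narrow one only, a peak shared with another gene only, or no summit within 1000 bp of an end, with all protein-coding genes at the bottom. The broad share is highest for glycolysis (39.1%) and ribosomal proteins (37.5%) and 0 for homeobox factors, beside 4.06% of all genes.

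Broad peaks were spread over all chromosomes analysed, at 7.5% of the single-end peaks on chromosome 21 (3 of 40) to 24.1% on chromosome 18 (19 of 79). Genes under them were of ordinary length, with medians of 32811 bp for members and 33424 bp for narrow peaks. Another peak within 5000 bp of the edge was present for 3.46% (2.40 to 4.95) of members and 5.99% (5.32 to 6.74) of narrow peaks.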

How the data were processed

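MYC ChIP-Rx of parental U2OS comprised 2 immunoprecipitated libraries and 1 input library. Per the submitters' processing notes, MACS2, Picard, SAMtools, Bowtie2 and cutadapt were used, with builds hg38, hg19 and mm10. Versions, settings, scaling by mouse reads and any pooling of libraries were not given in the sources used here. The values are those of the single deposited hg38 peak list. The deposited fold is a linear ratio at the summit as the authors' peak caller wrote it, and the deposited −log10 q-value belongs to the same summit. The deposited score and p-values were not used. No library had values of its own, so the depth is unknown.

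Positions are 1-based, on chromosomes 1 to 22 and X. Genes and promoter sequences came from RefSeq GRCh38.p14. Strand was taken from the promoter table, which matched 673 of 810 members. It lists 22132 starts for 15812 protein-coding genes. Each gene was represented by the listed start nearest its 5′ end, which was that end for 87.2% of genes. Printed sequences were limited to such genes, a limit added after the data were seen. Bins of fold, 4 of equal size, were cut over the 5119 single-end peaks. Shares carry Wilson 95% intervals. Scripts used Python 3.11.15 with pandas 2.3.3, NumPy 2.4.6, SciPy 1.17.1 and matplotlib 3.10.9, and were tested on simulated data.

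The members, the 17 gene lists and the alternatives were chosen with earlier results of these data known. Genes were named by a rule: the 10 widest, the 10 highest by −log10 q, the 5 lowest by fold, the 3 on either side of the width minimum, the 3 highest by −log10 q in each list, any gene with several members, and members at a 3′ end. Results for 1 of the widest members and for 1 list are not reported here. No test was made, since peaks within 1 list are not replicates. Alternatives changed the width minimum, the window, the gene classes counted, the peaks kept and the motif. Leaving out members that cover a noncoding gene end was added after the data were seen.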

Additional observations from a re-analysis of the deposited data

How the results depend on the processing

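With a width minimum of 1000 bp there were 1465 broad single-end peaks, with a median fold of 11.0 and 50.6% of summits within 250 bp of a 5′ end. With 1500 bp there were 294 peaks, a median fold of 12.6, 38.7% of summits within 250 bp, and 58 rather than 134 genes of the lists. Requiring exactly 1 gene of any class left 504. The share of summits within 250 bp was 59.1% with a window of 500 bp around gene ends and 39.9% with 2000 bp, and 22.7% lay within 100 bp. CACGTG was in 17.1% of promoters where the summit lay within 250 bp of the 5′ end, and CACGTG or CACGCG was in 34.2% of all member promoters. The stronger 50% of peaks by −log10 q gave a median fold of 13.9. The other 19 of 33 alternative values stayed within 1.5 times the count or within the interval of the value reported. Of 80 ribosomal protein genes, 42 had a broad peak at 1000 bp and 8 at 1500 bp, and 17 where members covering a noncoding gene end were left out. Of 43 DNA replication genes, 2, 0 and 1 had one. The share of all protein-coding genes in these settings was 7.33%, 1.47% and 2.60%, beside 4.06% in the main one.

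No paired analysis was possible because the deposited list carries no values per library, and leaving out a replicate could not be done for the same reason. Depth is unknown, so a narrow peak cannot be told apart from a broad one whose flanks were too shallow to call. How the peak caller's threshold, the sheared fragment length of 200 to 500 bp and the mouse reads enter width and fold was not tested.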
